A study of Mus musculus with 2 samples.

Results

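The proteasome is the protease complex that degrades ubiquitin-tagged proteins in every nucleated cell. Its 20S core is a barrel of stacked rings: alpha subunits form the outer gates, and beta subunits form the inner chamber where the active sites lie. The 19S regulatory particle, a base of ATPases with a lid of non-ATPase subunits, recognises, unfolds and feeds in substrates, other activators can cap the same core, and dedicated chaperones assemble both parts. In lymphocytes 3 of the beta subunits have inducible counterparts, Psmb8, Psmb9 and Psmb10, which make the immunoproteasome.

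The genes described here were all symbols that begin with Psm, a letter from a to g and a digit, except these 3 inducible subunits. The rule found 47 of the 24346 symbols in the deposited tables. They comprised 8 alpha and 8 beta genes of the 20S core, 6 ATPases and 11 non-ATPase subunits of the 19S particle, 6 activator or inhibitor genes and 7 assembly factors. The remaining symbol, Psmc3ip, is no proteasome gene: it encodes a cofactor of meiotic recombination and matched by its name alone. Of the 47 genes, 45 had a mean of at least 1 FPKM (a read count per transcript length and library size) over both libraries and were compared.

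The data came from mouse spleen CD4+ T cells sorted at day 14, a single library from HFD-MI animals that received probucol, a cholesterol-lowering antioxidant drug, and a single library from HFD-MI animals left untreated. MI stands for myocardial infarction in the series title. The labels do not expand HFD, and they give no genotype, age, sex or number of animals for either library. HypoE appears in the column header of each table and is not explained by the labels. Neither group has a replicate, so no p-value is given and every difference below is one between 2 libraries.

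Both libraries had the markers of the sorted cells. Cd4 was at 334 FPKM under probucol and 284 FPKM in untreated cells, and the 7 CD4 T cell markers found in the tables summed to 4187 FPKM under probucol and 4227 FPKM in untreated cells, with 2 of the 7 higher with probucol, Cd4 among them, and 5 lower. Markers of other cells were present and differed. Of 6 B cell markers, 5 were higher with probucol and Pax5 was listed at 0 in both, and the list summed to 58.2 FPKM under probucol and 20.9 FPKM in untreated cells. All 6 erythroid markers in the tables were lower with probucol, with a sum of 294 FPKM against 976 FPKM untreated. The 4 neutrophil markers, all higher with probucol, summed to 872 FPKM under probucol and 760 FPKM in untreated cells, and the 4 macrophage markers to 144 FPKM under probucol and 146 FPKM in untreated cells. Dendritic, CD8 T cell and natural killer lists each summed to under 20 FPKM in both libraries. The part of these other cells in the values below was not tested. In sorted bulk cells, fewer cells of a type and less RNA per cell cannot be told apart. From steps in the low values, a transcript of 1 kb at 1 FPKM rested on about 7.86 fragments with probucol and 7.90 untreated.

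Proteasome transcripts stood at nearly the same level in both libraries. The median log2 ratio of FPKM + 1, probucol over untreated, was 0.0049 over the 45 compared genes, with 23 higher and 22 lower with probucol; it was -0.01 once ratios were centred on the median of all compared genes. Among all 10663 compared genes the median was 0.02, with 52.7% higher and 47.3% lower. A difference of at least 25% upward, or of the inverse factor (0.8) downward, was reached by 2 of the 45 genes in each direction, on the FPKM + 1 scale. Across all compared genes, 17.8% were higher by that much and 14.1% lower, 31.9% in either direction. The 4 genes were Psme4 and Psmd10, both higher, and Psmg1 and Psmc3ip, both lower. None of the 45 reached 2-fold, a size reached by 1.62% of all compared genes upward and 1.98% downward.

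The closeness held in the part of the expression range where most of these genes lie. Of the 42 genes with a mean from 20 to 1000 FPKM, 40 (95.2%) were within the 25% bounds, against 81.5% of the 4427 genes of that range. The 42 genes lay higher within it, with a median of 128 FPKM under probucol and 130 FPKM in untreated cells. The medians of all genes of that range were 48.7 FPKM under probucol and 48.9 FPKM in untreated cells. The part of expression level in the closeness was not tested. The median size of the log2 ratio, its sign left out, was 0.12 for the 42 genes and 0.15 for all genes of that range. These shares describe 2 libraries and carry no test. Summed over the 45 genes, the level was 7596 FPKM under probucol and 7908 FPKM in untreated cells.

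**Figure D1:**
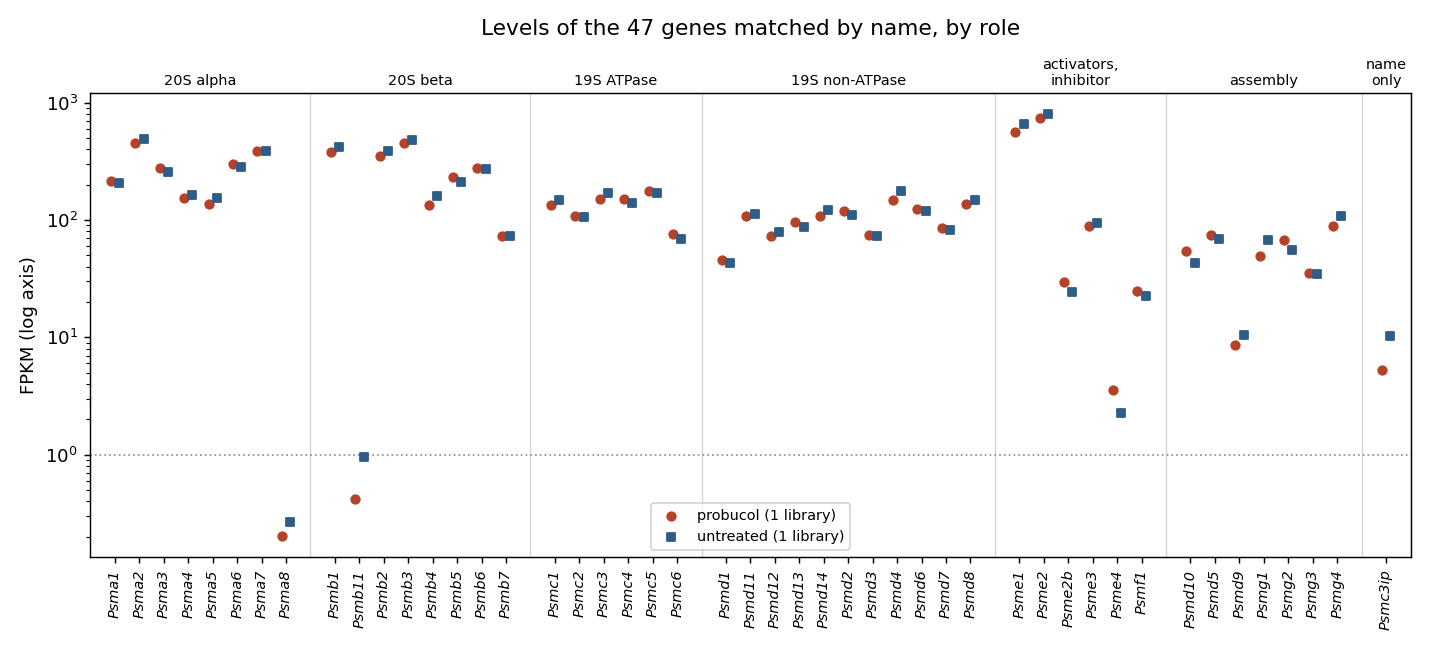
FPKM of each of the 47 genes on a log axis, grouped by role, with the probucol library as circles and the untreated library as squares, 1 library each; the dotted line marks 1 FPKM. The paired points lie close together in every class, the 20S genes stand above most 19S genes, and Psma8 and Psmb11 lie under 1 FPKM in both libraries.

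The alpha subunits, which form the gated outer rings of the core, had a median log2 ratio of 0.0049 over 7 compared genes, 4 higher and 3 lower. With Psma8 included the median was -0.04. Their sums were 1928 FPKM under probucol and 1935 FPKM in untreated cells. Psma2 was the most abundant, at 452 FPKM under probucol and 488 FPKM in untreated cells, a ratio of 0.927 (95% counting interval 0.900 to 0.954). This interval comes from estimated fragment numbers, so it covers counting error and leaves out variation among animals, sorts or preparations. Fragment numbers use the median length of each gene's annotated transcripts. With the median length, 6 of the 45 intervals lay above 1, 15 lay below it and 24 included it. With the longest transcript fragment numbers are larger, and 10 intervals that included 1 no longer did so: those of Psmc1, Psmc6, Psmd2, Psmd5, Psmd9, Psmd11, Psmd13, Psmd14, Psme3 and Psme4. The counts were then 11 above 1, 20 below it and 14 including it. Whether an interval includes 1 depends on depth, and the intervals of all compared genes were not counted. Psma5 was the least abundant of the 7 and had the lowest ratio, at 138 FPKM under probucol and 154 FPKM in untreated cells, a ratio of 0.896 (0.815 to 0.985). The highest ratio was that of Psma3, at 280 FPKM under probucol and 257 FPKM in untreated cells, a ratio of 1.09 (1.02 to 1.17).

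The other alpha genes lay between these ends. Psma7 was at 386 FPKM under probucol and 385 FPKM in untreated cells. Psma6 was at 301 FPKM under probucol and 281 FPKM in untreated cells, and Psma1 was at 215 FPKM under probucol and 206 FPKM in untreated cells. Psma4 was at 155 FPKM under probucol and 165 FPKM in untreated cells. Although each ring holds 1 copy of every alpha protein, the transcripts spanned a range in both libraries: Psma2 exceeded Psma5 by 3.28-fold with probucol and by 3.17-fold untreated. Psma8, the alpha subunit of the testis, was at 0.203 FPKM under probucol and 0.269 FPKM in untreated cells, on about 2 fragments in each library, and was not compared.

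Within the beta rings, Psmb5, Psmb6 and Psmb7 carry the chymotrypsin-like, caspase-like and trypsin-like active sites. Psmb5 was at 231 FPKM under probucol and 210 FPKM in untreated cells, a ratio of 1.10 (1.01 to 1.19). Psmb6 was at 281 FPKM under probucol and 274 FPKM in untreated cells, a ratio of 1.02 (0.949 to 1.10). Psmb7 was at 72.9 FPKM under probucol and 73.3 FPKM in untreated cells, a ratio of 0.993 (0.920 to 1.07). The intervals of Psmb6 and Psmb7 include 1, and that of Psmb5 ends just above it. Psmb5 carries a further uncertainty, because the annotated microRNA gene Mir686 overlaps 109 bases of its exons on the same strand. Mir686 was listed at 602 FPKM with probucol and at 0 untreated, and fragments of this stretch could have been assigned to either gene.

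The structural beta subunits were all lower with probucol, by small amounts. Psmb4 had the lowest ratio of the ring, 0.840 (0.752 to 0.939), at 135 FPKM under probucol and 161 FPKM in untreated cells. Psmb1 was at 379 FPKM under probucol and 418 FPKM in untreated cells, a ratio of 0.908 (0.876 to 0.941). Psmb2 was at 354 FPKM under probucol and 388 FPKM in untreated cells. Psmb3, the most abundant beta transcript, was at 455 FPKM under probucol and 482 FPKM in untreated cells, with 7 annotated pseudogene copies that could hold some of its fragments. Over the 7 compared beta genes the median log2 ratio was -0.08, with 2 higher and 5 lower. Psmb11, the beta subunit of thymic epithelium, was at 0.422 FPKM under probucol and 0.964 FPKM in untreated cells, on about 9 fragments under probucol and 21 in untreated cells, and was not compared.

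The inducible counterparts were more abundant than the constitutive catalytic subunits in both libraries. Psmb8, which replaces Psmb5, was at 884 FPKM under probucol and 978 FPKM in untreated cells, and made up 79.3% of the pair with probucol and 82.3% untreated. Psmb9, which replaces Psmb6, was at 454 FPKM under probucol and 495 FPKM in untreated cells, or 61.8% of its pair with probucol and 64.3% untreated. Psmb10, which replaces Psmb7, was at 220 FPKM under probucol and 201 FPKM in untreated cells, or 75.1% of its pair with probucol and 73.3% untreated. The share of the inducible subunit was thus a little lower with probucol in 2 pairs and a little higher in the other, with no replicates to set these shifts against.

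**Figure D2:**
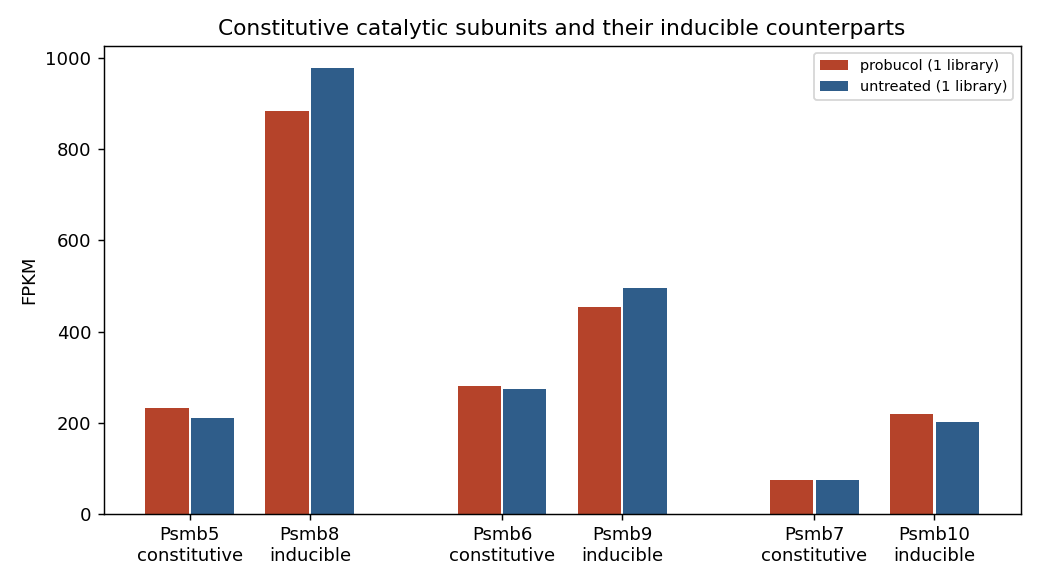
Bars give the FPKM of the 3 constitutive catalytic subunits and of the inducible subunits that replace them, from 1 probucol library (left bar of each pair) and 1 untreated library (right bar). In each of the 3 pairs the inducible subunit is higher in both libraries, with Psmb8 at 884 FPKM under probucol and 978 FPKM in untreated cells.

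Promoter sequence was read for the genes that the comparison turns on. Of the 47 genes, 39 had a promoter in the RefSeq table (GRCm38.p6). Motifs were searched on both strands in the 250 bases before the annotated start: TGACNNNGC, the core of the antioxidant response element bound by NFE2L1 and NFE2L2, CCAAT, the box bound by NF-Y, CCGGAAG, a core bound by ETS factors, and GGGCGG, the GC box. The last 120 bases before the start are shown 5′ to 3′ for the catalytic subunits with an entry (Psmb5, Psmb6) and for the proteasome genes past the 25% bounds (Psmg1, Psmd10, Psme4). Capitals mark motif matches, and matches may overlap.
Psmb5, chr14:54617996-54618115, minus strand: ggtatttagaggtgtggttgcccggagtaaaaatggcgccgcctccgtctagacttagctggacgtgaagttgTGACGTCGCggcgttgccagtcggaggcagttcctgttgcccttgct
Psmb6, chr11:70525237-70525356, plus strand: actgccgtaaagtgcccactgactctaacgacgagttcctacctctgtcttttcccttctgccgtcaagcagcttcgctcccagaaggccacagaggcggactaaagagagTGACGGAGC
Psmg1, chr16:95990961-95991080, minus strand: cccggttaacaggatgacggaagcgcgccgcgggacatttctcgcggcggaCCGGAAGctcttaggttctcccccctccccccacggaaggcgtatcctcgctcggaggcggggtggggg
Psmd10, chrX:140956712-140956831, minus strand: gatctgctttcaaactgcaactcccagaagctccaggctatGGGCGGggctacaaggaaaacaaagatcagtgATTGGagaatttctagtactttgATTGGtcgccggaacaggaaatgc
Psme4, chr11:30771655-30771774, plus strand: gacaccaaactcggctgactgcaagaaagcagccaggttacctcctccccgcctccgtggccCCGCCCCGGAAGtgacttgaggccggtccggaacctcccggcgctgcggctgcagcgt

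None of the 4 motifs occurred in all 5 of these windows. Psmb5 and Psmb6 hold a match to TGACNNNGC, starting 47 and 9 bases before the start. Psmg1 and Psme4 hold CCGGAAG, and Psmd10 holds CCAAT read on the other strand. Psmd10 also holds GGGCGG, and Psme4 holds GGGCGG read on the other strand, overlapping its CCGGAAG. Across the 39 genes, TGACNNNGC was found in 5 (12.8%), against 10.2% of all 32851 promoters in the table and 12.0% of the promoters of compared genes. CCAAT was found in 14 genes (35.9%), against 33.8% of all promoters and 35.9% of those of compared genes. Shares of the 39 are counted by gene, and the shares beside them by promoter. GGGCGG was found in 21 (53.8%), against 32.7% of all promoters and 57.6% of those of compared genes. CCGGAAG was found in 13 (33.3%), against 6.91% of all promoters and 15.1% of those of compared genes. A match describes the letters of the window and does not show that a factor binds there.

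The 6 ATPases, which form the unfolding ring of the 19S base, summed to 798 FPKM under probucol and 800.3 FPKM in untreated cells. Their median log2 ratio was 0.05, with 4 higher and 2 lower. Psmc5, the most abundant, was at 178 FPKM under probucol and 169 FPKM in untreated cells, and Psmc6, the least abundant, was at 76.4 FPKM under probucol and 69.5 FPKM in untreated cells, a ratio of 1.10 (0.961 to 1.26). Psmc4 was at 152 FPKM under probucol and 139 FPKM in untreated cells, a ratio of 1.09 (1.01 to 1.19). The lower pair was Psmc3, at 151 FPKM under probucol and 169 FPKM in untreated cells, a ratio of 0.895 (0.820 to 0.976), and Psmc1, at 133 FPKM under probucol and 148 FPKM in untreated cells, a ratio of 0.898 (0.800 to 1.01). Psmc2 was at 108 FPKM under probucol and 106 FPKM in untreated cells. Exons of Psmc3 overlap those of Slc39a13 on the opposite strand, and the labels do not mention stranded counting. Such overlaps with a protein-coding gene, on either strand, were found for 9 of the 47 genes. Among them was the 19S gene Psmd13, which shares 329 bases with Sirt3 on the opposite strand.

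The 11 non-ATPase subunits had a median log2 ratio of 0.02, with 6 higher and 5 lower. Psmd4, a ubiquitin receptor, had the lowest ratio of them, 0.846 (0.792 to 0.904), at 150 FPKM under probucol and 177 FPKM in untreated cells. Psmd14, the deubiquitinase that removes ubiquitin from substrates, was also lower, at 108 FPKM under probucol and 122 FPKM in untreated cells, a ratio of 0.883. Its interval was 0.767 to 1.02 with the median transcript length and 0.822 to 0.949 with the longest. The highest ratio was that of Psmd13, a lid subunit, at 96.6 FPKM under probucol and 88.0 FPKM in untreated cells, a ratio of 1.10 (0.975 to 1.23). Psmd2, a scaffold of the base, was at 120.5 FPKM under probucol and 111 FPKM in untreated cells. Its fellow scaffold Psmd1, the least abundant subunit of the 19S particle, was at 45.3 FPKM under probucol and 43.2 FPKM in untreated cells.

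The remaining lid subunits stayed closer together. Psmd3 was at 74.6 FPKM under probucol and 73.7 FPKM in untreated cells, Psmd6 at 123 FPKM under probucol and 119.9 FPKM in untreated cells, and Psmd7 at 86.3 FPKM under probucol and 82.7 FPKM in untreated cells. Psmd8 was at 137 FPKM under probucol and 148 FPKM in untreated cells, a ratio of 0.926 (0.864 to 0.991). Psmd11 was at 107 FPKM under probucol and 113 FPKM in untreated cells, and Psmd12 at 72.7 FPKM under probucol and 79.1 FPKM in untreated cells. All 31 compared subunits of the 20S and 19S particles were within the 25% bounds, 16 higher and 15 lower with probucol. Their log2 ratios ran from -0.25 (Psmb4) to 0.14 (Psmb5 and Psmc6).

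The core was more abundant than its regulatory particle at the transcript level in FPKM, a unit per transcript length. Over the 31 subunits the level still fell with the longest transcript length, with a Spearman rho of -0.51 across genes, against -0.27 over all compared genes, and the part of length in the difference between core and particle was not tested. The median over the 14 compared 20S genes was 280 FPKM under probucol and 266 FPKM in untreated cells. The median over the 17 19S genes was 108 FPKM under probucol and 113 FPKM in untreated cells. The median of the core thus exceeded that of the regulatory particle by 2.61-fold with probucol and 2.34-fold untreated. The order of the 45 genes was nearly the same in both libraries, with a Spearman rho of 0.99 across genes, which are not independent replicates. Over all 10663 compared genes rho was 0.96.

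**Figure D3:**
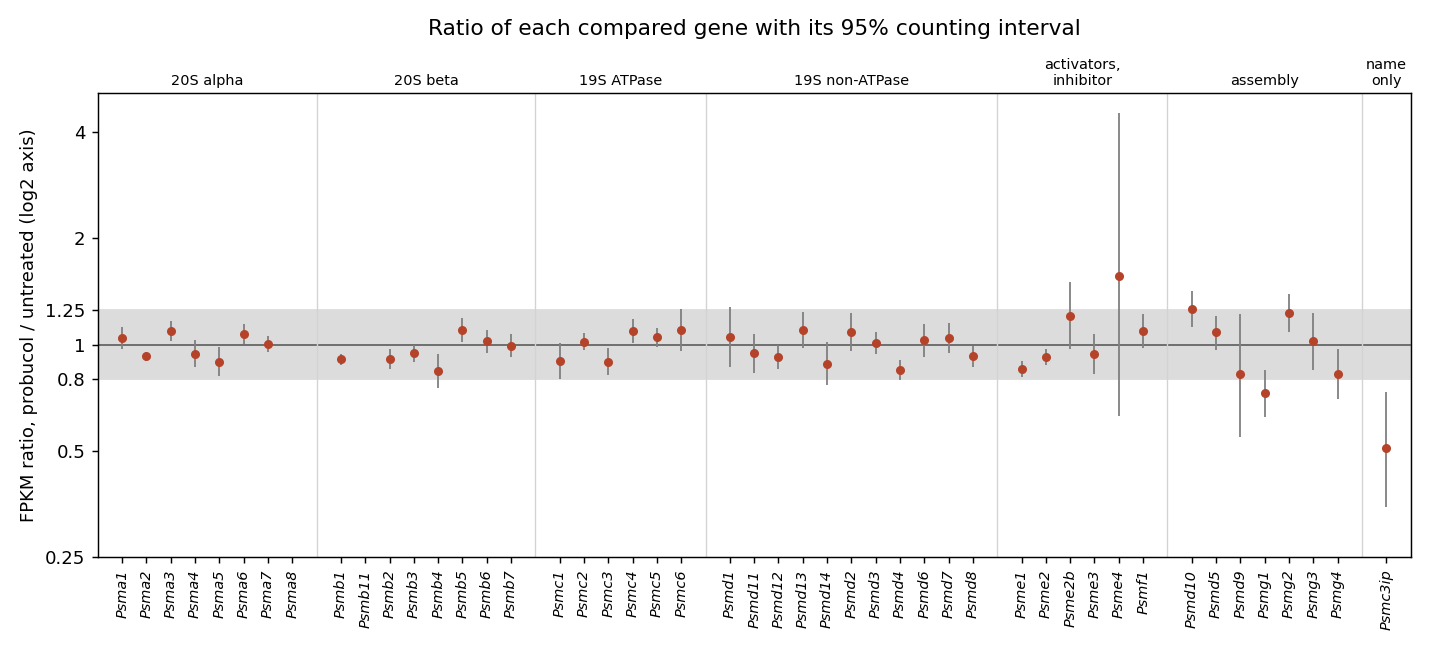
FPKM ratio of probucol over untreated for the 45 compared genes on a log2 axis, grouped by role. Bars are 95% counting intervals from estimated fragments, and the shaded band spans 0.8 to 25% above 1; the 20S and 19S genes lie inside the band, Psmg1 and Psmc3ip lie below it, Psme4 lies above it and Psmd10 just past its upper edge.

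Activators that cap the core in place of the 19S particle were led by the interferon-inducible pair Psme1 and Psme2, which encode the alpha and beta subunits of PA28. Psme1 was at 566 FPKM under probucol and 662 FPKM in untreated cells, a ratio of 0.854 (0.812 to 0.899). Psme2 was at 742 FPKM under probucol and 802 FPKM in untreated cells, a ratio of 0.925 (0.878 to 0.973). They were the most abundant of all 47 genes in both libraries, and Psme1 stood at 0.763 of Psme2 with probucol and at 0.826 untreated. Psme3, which encodes the nuclear PA28 gamma, was at 89.6 FPKM under probucol and 95.3 FPKM in untreated cells. Psmf1, which encodes the inhibitor PI31, was at 24.8 FPKM under probucol and 22.7 FPKM in untreated cells, a ratio of 1.09 (0.976 to 1.22).

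Psme4, which encodes the large activator PA200, had the highest ratio of the 45 genes. It was at 3.57 FPKM under probucol and 2.27 FPKM in untreated cells, a ratio of 1.57. Its interval depends on the transcript length used, since annotated transcripts of Psme4 (chromosome 11, 30771726 to 30880361, mm10) have a median length of 582 bases and a longest of 6491. With the median length the ratio rests on about 13 fragments under probucol and 8 in untreated cells, and its interval of 0.627 to 4.55 includes 1. With the longest it rests on about 223 fragments under probucol and 143 in untreated cells, and the interval is 1.26 to 1.95. Across all compared genes the ratio was slightly higher for long transcripts: the median log2 ratio was 0.06 for 6892 genes with a longest transcript over 2500 bases and -0.10 for 1537 genes under 1500 bases. For the proteasome genes it was 0.03 over 13 genes and 0.03 over 17 genes in the same length classes, and -0.11 over the 15 genes between them. The Spearman rho of log2 ratio with longest transcript length was 0.20 over the 45 genes and 0.23 over all compared genes with a length. The part of transcript length in the ratio of Psme4 was not tested.

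Psme2b, an intronless gene on chromosome 11, cannot be separated cleanly from Psme2. It was listed at 29.6 FPKM under probucol and 24.5 FPKM in untreated cells, a ratio of 1.21 (0.970 to 1.51). The reading frames of both genes are 720 bases long and differ at 5 positions, an identity of 99.3%. The stretch from base 484 to base 543 of the reading frame holds 3 of the 5, shown here in capitals to make clear how few fragments could tell the genes apart.
Psme2: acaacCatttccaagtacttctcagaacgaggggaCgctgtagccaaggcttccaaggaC
Psme2b: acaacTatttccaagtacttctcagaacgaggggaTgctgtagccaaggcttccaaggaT

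Over the 794 bases where the transcripts align, fragments that cover none of the 5 positions match both genes, so the value of Psme2b, and a small part of that of Psme2, is uncertain. In all, 15 of the 47 genes had an annotated copy elsewhere in the genome with at least 90% identity over 300 bases or more. Beside Psme2 and Psme2b themselves there were 30 such copies, of which 2 had a value of their own in the tables. One was A730017L22Rik, a copy of the lid gene Psmd11 at 97.9% identity, listed at 5.88 FPKM under probucol and 14.9 FPKM in untreated cells.

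Assembly factors were the most scattered class. Their median log2 ratio was 0.03, with 4 higher and 3 lower. The interquartile range was 0.46, against 0.19 for the 31 subunits of the 20S and 19S particles and 0.41 for all compared genes. Assembly factors were also less abundant, with a median of 54.7 FPKM under probucol and 55.5 FPKM in untreated cells. Medians of the 31 subunits were 138 FPKM under probucol and 154 FPKM in untreated cells. The part of expression level in the scatter was not tested. Psmg1 and Psmg2 encode the partners PAC1 and PAC2, which work as a dimer in building the alpha ring, and they differed in opposite directions. Psmg1 (chromosome 16, 95979933 to 95990960) was at 49.5 FPKM under probucol and 68.0 FPKM in untreated cells, a ratio of 0.729 (0.622 to 0.850). Psmg2 was at 68.1 FPKM under probucol and 55.5 FPKM in untreated cells, a ratio of 1.23 (1.08 to 1.39). Psmg1 was thus the lower of the partners with probucol and the higher untreated.

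The second pair of core chaperones, PAC3 and PAC4, is encoded by Psmg3 and Psmg4. Psmg3 was at 35.6 FPKM under probucol and 34.8 FPKM in untreated cells. Psmg4 was at 88.8 FPKM under probucol and 107 FPKM in untreated cells, a ratio of 0.827 (0.701 to 0.974). The 3 chaperones of the 19S base also differed among themselves. Psmd10 (chromosome X, 140948429 to 140956728), which encodes gankyrin, was at 54.7 FPKM under probucol and 43.4 FPKM in untreated cells, a ratio of 1.26 (1.12 to 1.42), which fell inside the 25% bounds once log2 ratios were centred on the median gene. Psmd5 was at 74.8 FPKM under probucol and 69.1 FPKM in untreated cells, a ratio of 1.08 (0.968 to 1.21). Psmd9 was at 8.62 FPKM under probucol and 10.5 FPKM in untreated cells, a ratio of 0.823. With the median transcript length this rests on about 48 fragments under probucol and 59 in untreated cells, with an interval of 0.547 to 1.22. With the longest it rests on about 208 fragments under probucol and 254 in untreated cells, with an interval of 0.682 to 0.992.

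Psmc3ip, the meiotic gene that shares only the name, had the lowest ratio of the 45 genes. It was at 5.25 FPKM under probucol and 10.3 FPKM in untreated cells, a ratio of 0.508 (0.347 to 0.735), on about 45 fragments under probucol and 89 in untreated cells. Exons of Psmc3ip (chromosome 11, 101091823 to 101095436) overlap 385 bases of those of Mlx on the opposite strand, which was at 73.1 FPKM under probucol and 68.6 FPKM in untreated cells, so reads of the shared stretch cannot be assigned without strand. Without Psmc3ip, 3 of 44 genes remained past the 25% bounds, 2 higher and 1 lower.

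Of 10 genes for proteins that work with the proteasome under other names, 7 were higher and 3 lower, with a median log2 ratio of 0.09. Within the 25% bounds were 8 of them. Among all compared genes 52.7% were higher and 68.1% were within these bounds. Just inside the upper bound lay Uchl5, a deubiquitinase of the 19S particle, at 34.7 FPKM under probucol and 27.8 FPKM in untreated cells, with an interval of the ratio of 1.01 to 1.55, and AI314180, at 12.0 FPKM under probucol and 9.61 FPKM in untreated cells. The subunit gene Shfm1, listed under that older symbol for Sem1, was at 568 FPKM under probucol and 552 FPKM in untreated cells. Adrm1, a ubiquitin receptor, was at 105 FPKM under probucol and 120.4 FPKM in untreated cells. Pomp, the maturation factor of the core, was at 347 FPKM under probucol and 349 FPKM in untreated cells. The 2 members past the 25% bounds, both higher, were the ubiquitin ligases Ube3c, at 13.8 FPKM under probucol and 10.6 FPKM in untreated cells, a ratio of 1.30 (1.12 to 1.51), and Ubr4, at 10.2 FPKM under probucol and 7.25 FPKM in untreated cells, a ratio of 1.41. The interval of Ubr4 was 0.919 to 2.14 with the median transcript length and 1.31 to 1.53 with the longest. The longest annotated transcript has 5048 bases for Ube3c and 15928 bases for Ubr4. The part of transcript length in their ratios was not tested.

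Genes that control proteasome transcription had a median log2 ratio of 0.01 over 12 compared of 15 listed. Of the 12, 7 were higher and 5 lower, against 52.7% higher among all compared genes. Nfe2l1, whose product raises proteasome gene transcription when the proteasome is inhibited, was at 23.5 FPKM under probucol and 21.2 FPKM in untreated cells, a ratio of 1.11 (0.986 to 1.24, or 1.01 to 1.21 with the longest transcript). Its relative Nfe2l2, the main regulator of the antioxidant response, was at 60.8 FPKM under probucol and 52.5 FPKM in untreated cells, a ratio of 1.16 (1.06 to 1.27). Nfyb, a subunit of the CCAAT-binding factor NF-Y, was the only one past the 25% bounds, at 36.5 FPKM under probucol and 28.8 FPKM in untreated cells, a ratio of 1.27. Its interval was 0.990 to 1.63 with the median transcript length and 1.17 to 1.38 with the longest.

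Of 13 genes for ubiquitin, its activating enzymes (Uba1, Uba6) and the shuttles that carry tagged proteins, 3 were higher and 10 lower with probucol. Among all compared genes 52.7% were higher and 47.3% lower. The median log2 ratio of the 13 was -0.12. Ddi2, one of the 3 higher genes, was also counted among the genes that control transcription. Sqstm1, which encodes the autophagy receptor p62, was at 159 FPKM under probucol and 212 FPKM in untreated cells, a ratio of 0.749 (0.694 to 0.808). The shuttle gene Ubqln1 was higher, at 91.1 FPKM under probucol and 55.1 FPKM in untreated cells, a ratio of 1.65 (1.54 to 1.77). Both were among the members past the 25% bounds.

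The cytosolic chaperonin, another large complex of protein quality control, was measured at a median of 279 FPKM under probucol and 217 FPKM in untreated cells, near that of the 20S genes and above that of the 19S genes. All 8 of its compared subunit genes were higher with probucol, against 52.7% of all compared genes, and their median log2 ratio was 0.38. Past the upper 25% bound were 5 of the 8, against 17.8% of all compared genes. This list was chosen with earlier results of these data known, so its contrast with the proteasome describes these libraries only. The largest ratio was that of Cct7, at 351 FPKM under probucol and 225 FPKM in untreated cells, and the smallest that of Cct2, at 140.5 FPKM under probucol and 116 FPKM in untreated cells. The medians of the proteasome classes, for comparison, ran from -0.08 for the beta subunits to 0.05 for the ATPases, and at a mean of at least 10 FPKM from -0.09 for the activators to 0.07 for the assembly factors. With 1 library per group the difference between the complexes has no test.

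**Figure D4:**
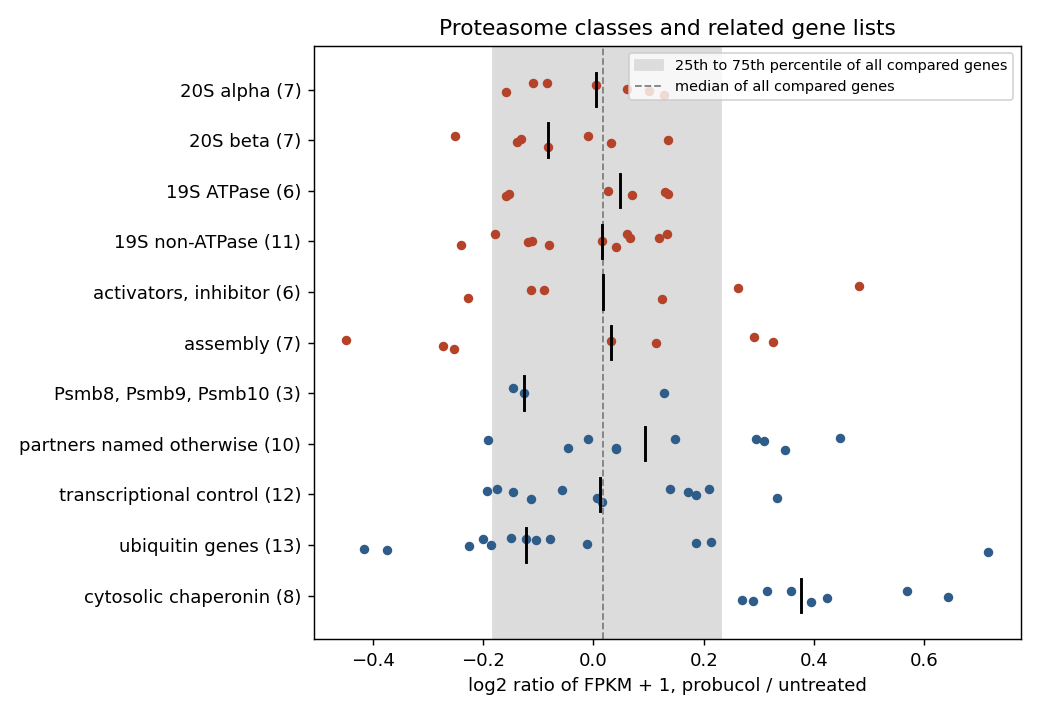
Log2 ratio of FPKM + 1, probucol over untreated, for each gene (points, spread vertically for visibility) in the 6 proteasome classes (red) and in 5 related lists (blue), with list medians as black bars and gene numbers in brackets. The grey band spans the 25th to 75th percentile of all compared genes; the 20S and ATPase genes lie inside it except Psmb4, assembly factors spread past both edges, and all 8 chaperonin genes lie above it.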

How the data were processed

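RNA of 2 libraries was compared, 1 per group. Each deposited table holds FPKM values, according to its header, with 1 value for every gene symbol. The submitters' processing notes list Bowtie2, TopHat2 2.1.1, Cuffdiff 2.2.1 and the build mm10, in no stated role. The annotation, the filters and how the libraries were scaled to each other were not given in the sources used here. Libraries were made with SMART-Seq HT and Nextera kits, per the labels' protocols.

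Log2 ratios used FPKM + 1 for genes with a mean of at least 1 FPKM, and printed ratios are of FPKM itself. The worth of 1 fragment was fitted to low values of single-transcript genes of 800 to 10000 bases (0.101 FPKM at 1 kb with probucol and 0.100 untreated, 210 bases subtracted). Of the low values, 77.1% with probucol and 78.0% untreated lay within 0.1 of a whole number. Fragments per gene used the median length of transcripts in GENCODE M21 (GRCm38, the assembly of mm10). Intervals are exact (Clopper-Pearson, 95%) and cover counting error only. PCR copies cannot be removed. Copies were found with BLAST 2.17.0. Calculations used Python 3.11.15, numpy 2.4.6, pandas 2.3.3 and scipy 1.17.1, tested on simulated data.

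Every gene matched by the rule is accounted for. Genes were described in full where they were catalytic, past the 25% bounds, at the end of a class, or under 1 FPKM. The members, the lists and the motifs were chosen with earlier results of these data known. Paaf1 and Trac were not analysed here. Alternatives were other pseudocounts, filters and scalings, sets without genes of other tissues, and the longest transcript.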

Additional observations from a re-analysis of the deposited data

How the results depend on the processing

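The counts of higher and lower genes stayed within 1.5 times under all 8 alternatives of pseudocount, filter, scaling and membership. Class medians lie near 0, and some changed sign. Without the filter the median log2 ratio was -0.0094 for all genes and -0.04 for the alpha subunits. At a mean of at least 10 FPKM it was -0.09 for the activators. After centring on the median gene it was -0.01 for all genes and for the alpha subunits, and -0.0015 for the non-ATPase subunits. The beta subunits stayed negative, and the ATPases and assembly factors positive, under all 8. The small counts past the 25% bounds moved. With pseudocount 5, 2 genes in all and 0 higher ones were past them. At a mean of at least 10 FPKM there were 2 in all, 1 higher and 1 lower. After centring on the median gene 1 was higher, since Psmd10 lies just past the bound. Without Psmc3ip, and without Psma8, Psmb11 and Psmc3ip, 1 was lower. Rescaling to equal sums or by the median ratio moved no gene's ratio outside its counting interval. Both changes were too small to do so, and equal sums multiplied the probucol values by only 1.016. Intervals that end close to 1, such as that of Psma6 (1.005 to 1.14), were not read against 1 again after rescaling. With the longest transcript in place of the median length, 10 more intervals excluded 1, among them that of Psme4, and 35 kept their side of 1. The same count was not made over all compared genes. No paired analysis was possible because each group has 1 library. Depth limits Psma8 and Psmb11, and Psmd9 and Psme4 where the median transcript length holds, and differences between animals cannot be judged at all.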
